A study of Mus musculus with 31 samples.

Results

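*Dusp1*, *Dusp2*, *Dusp4*, *Dusp5*, *Dusp6*, *Dusp8*, *Dusp10*, *Dusp14* and *Dusp16* encode dual-specificity MAP kinase phosphatases (MKPs). They were taken by gene symbol from the deposited table of raw counts, and all 9 were found among its 39179 genes. MKPs take phosphate off both the threonine and the tyrosine in the activation loop of a MAP kinase and so switch it off, and many of them are transcribed in response to the same kinases, so that they act as negative feedback. *Dusp1*, *Dusp2*, *Dusp4* and *Dusp5* encode nuclear, inducible enzymes, of which *Dusp5* acts on ERK. *Dusp6* encodes the cytoplasmic ERK phosphatase, *Dusp8*, *Dusp10* and *Dusp16* encode enzymes directed at JNK and p38, and *Dusp14* encodes a small phosphatase without the kinase-binding domain of the others. In melanoma, where activating mutations of NRAS or BRAF are common, transcripts such as those of *DUSP6* and *DUSP4* are used as readouts of ERK output, and *Dusp1* is a textbook target of glucocorticoids (GC).

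The RNA came from tumors and cultures of 20967, a mouse melanoma line, treated with the GC clobetasol propionate or a control. The design asks whether the response to GC passes through the glucocorticoid receptor (GR, gene *Nr3c1*) of the melanoma cells or of the host. All 8 groups share the background of the line, C57BL/6 with Tyr::CreERT2+/o, a Cre under the tyrosinase promoter of melanocytes, and with Nras+LSL-G12D, the mutant Nras that this Cre switches on. GR KO cells were made from it with Cas9 ribonucleoprotein directed against *Nr3c1* and are single clones checked by Western blot. The library names of all GR KO cultures carry the same label, so these cultures may come from a single clone. Clone and genotype can then not be told apart. RNA was read from its 3′ ends, so a level stands for tags near the end of a transcript, and levels are in CPM, the counts of a gene relative to the size of its library after scaling between libraries.

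The 20 tumors grew in wild-type C57BL/6 mice, whose own cells in the tumor still carry GR, and each of 4 groups held 5 of them. Parental and GR KO tumors received either cetraben cream as control or clobetasol ointment at 0.05%, applied to the skin 3 times a week. In tumors the effect of the drug and that of ointment against cream can thus not be told apart. The age of the mice and the time of harvest were not stated. The 11 cultures were 3 parental cultures with DMSO, 2 parental with GC, 3 GR KO with DMSO and 3 GR KO with GC, all for 48 h. For the GC dose of the cultures, the treatment label gave 10 µM and the library names 1 µM. Total counts ran from 15528066 to 26386770 per tumor and from 14441166 to 22463188 per culture. Tumors come from separate mice, whereas the library names of the 11 cultures carry the same date and do not say whether their replicates are separate experiments, so p-values measure the spread between these samples, and that of cultures may be technical.

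Melanocyte markers were low. *Mitf*, the master regulator of the lineage, lay between 19.7 and 49.2 CPM in tumors and between 3.01 and 11.7 CPM in cultures. *Sox10*, *Dct*, *Mlana* and *Tyr* had 0 counts in all 11 cultures, and *Tyr* had 0 counts in all 31 libraries. *Sox10* reached 3.44 CPM and *Dct* 6.39 CPM in the tumors where they were highest. The cells are therefore called by their line name, 20967, and the labelled melanoma identity rests on the labels.

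Some libraries stood apart from the rest. A noncoding gene, *Gm26924*, which was chosen after its values were seen, took over 5% of the counts in 6 tumors. Its share was 11.6, 8.97, 6.57 and 16.3% in GR KO control tumors 1, 2, 3 and 5, 5.55% in parental control tumor 1 and 6.65% in GR KO GC tumor 4. GR KO control tumor 4 stood on the other side with 0.248%. The number of genes expected at equal depth, that of the smallest library, was 13284, 14668, 14986 and 14153 in GR KO control tumors 1, 2, 3 and 5, which were the 4 lowest of the 20 tumors, and 16599 in GR KO control tumor 4. In the other 15 tumors it lay between 15031 and 16665, and in the cultures between 13499 and 14127. Calls that rest on GR KO control tumors are given below with the 6 libraries over 5% and without them, an alternative chosen after seeing the data that leaves 1 GR KO control tumor.

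*Nr3c1*, the edited gene, was still read. It gave 63.4, 57.1, 44.9, 55.6 and 52.2 CPM in parental control tumors, 53.4, 24.4, 48.2, 37.3 and 49.8 CPM in parental GC tumors, 20.7, 27.3, 31.4, 31.8 and 23.5 CPM in GR KO control tumors, and 47.9, 21.7, 58.0, 32.5 and 49.4 CPM in GR KO GC tumors. In cultures the levels were 33.2, 30.0 and 35.6 CPM (parental, DMSO), 39.5 and 33.4 CPM (parental, GC), 24.8, 21 and 16.4 CPM (GR KO, DMSO) and 20.9, 22.5 and 13.1 CPM (GR KO, GC). All GR KO control tumors lay below all parental control tumors, the groups of GC tumors overlapped, and every GR KO culture lay below every parental culture. *Nr3c1* fell by 1.02 on the log2 scale in GR KO against parental control tumors (SE 0.24, edgeR adjusted p = 0.0313), and the value was −0.02 between GC tumors (adjusted p = 0.981). The call was lost without the 6 libraries (−0.71, edgeR adjusted p = 0.989), with the number of genes at equal depth as a covariate (−0.63, adjusted p = 0.377) and in 8 of 10 fits that left out 1 library. In GR KO against parental cultures it fell by 0.95 with GC (SE 0.24, edgeR adjusted p = 0.0384, lost in 4 of 5 fits that left out 1 culture, with the replicate block and with the 2 groups fitted alone) and the value with DMSO was −0.67 (SE 0.22, adjusted p = 0.084). The 3′ tag may lie outside the edited stretch, so these levels say nothing about the protein.

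GR target genes responded to GC in tumors of both genotypes and in parental cultures. *Tsc22d3*, the GC-induced leucine zipper gene, gave 88.5, 42.1, 72.4, 87.2 and 68.7 CPM in parental control tumors and 454, 181, 372, 346 and 460 CPM with GC, and 60.8, 45.4, 71.5, 89.1 and 62.3 CPM in GR KO control tumors and 250, 247, 206, 170 and 250 CPM with GC. GC tumors lay above control tumors in both genotypes without overlap. Of all genes tested, 0.779% were called with GC in parental tumors and 6.42% in GR KO tumors. With GC, at an edgeR adjusted p under 0.05 and a fold of at least 1.5, which is what a call means throughout, 5 of 7 target genes rose in parental tumors (*Tsc22d3* by 2.34 on the log2 scale, *Per1* by 2.19, *Cebpd* by 1.66, *Klf9* by 1.51 and *Sgk1* by 1.27; edgeR adjusted p from 1.61e-05 to 0.00824) and 4 of 7 in GR KO tumors (*Fkbp5* by 2.03, *Tsc22d3* by 1.77, *Per1* by 1.29 and *Klf9* by 1.25; adjusted p from 0.000403 to 0.0134). Without the 6 libraries these 4 calls were lost, at 1.66 for *Fkbp5*, 1.41 for *Tsc22d3*, 0.89 for *Per1* and 2.41 for *Klf9* (edgeR adjusted p from 0.0759 to 0.481), and that of *Klf9* was also lost with the covariate (1.36, adjusted p = 0.0665). In cultures *Zbtb16* did not pass the filter on low levels, and 6 of 6 rose in parental cells (*Tsc22d3* by 3.09, edgeR adjusted p = 2.28e-05) and 0 of 6 in GR KO cells, where 237 genes had an unadjusted p under 0.05 and DESeq2 called 0 genes. Of all genes tested, 0.878% were called in parental cells and 0% in GR KO cells. Of the 6 calls in parental cells, *Cebpd* lost its call without any 1 of the 5 parental cultures, *Fkbp5* without parental DMSO 2 or 3 or either parental GC culture, and *Klf9* without parental GC 1. *Fkbp5* (2.19, edgeR adjusted p = 0.0653) and *Cebpd* (1.18, adjusted p = 0.0800) also lost theirs with the replicate block, and *Fkbp5* with the 2 groups fitted alone (2.33, adjusted p = 0.0614). The difference of the GC effects between genotypes passed for 3 of them in cultures (0.295% of all genes) and for 0 of 7 in tumors (0.195%). Between genotypes *Cebpd* (−1.66, edgeR adjusted p = 0.00479, held in 10 of 10 fits that left out 1 library) and *Per1* (−1.24, adjusted p = 0.0242, lost in 6 of 10) were lower in GR KO GC tumors. *Fkbp5* was lower in GR KO control tumors (−1.50, edgeR adjusted p = 0.0296), a call lost in 8 of 10 such fits, without the 6 libraries (−0.999) and with the covariate (−0.90). In cultures 6 of 6 were lower in GR KO with GC (*Tsc22d3* by 2.73, edgeR adjusted p = 9.84e-06), of which *Klf9* lost its call in 3 of 5 fits and with the 2 groups fitted alone, and *Cebpd* was also lower with DMSO (−0.95, adjusted p = 0.0126, lost in 2 of 6). Of all genes, 0.634% were called between GC tumors, 2.25% between control tumors, 5.55% between GC cultures and 8.22% between DMSO cultures.

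*Dusp5* was the one member called by edgeR in any of the 10 comparisons. It encodes the nuclear phosphatase of ERK and is itself an ERK-induced gene (ENSMUSG00000034765, chr19:53529109-53542431 on the plus strand of GRCm38), and its exons overlap *AC137853.2* on the opposite strand, which is not in the table of counts. Parental control tumors gave 44.6, 39.0, 36.2, 46.2 and 31.6 CPM, parental GC tumors 38.84, 53.4, 42.8, 35.3 and 30.6 CPM, and GR KO GC tumors 34.6, 43.8, 40.0, 41.3 and 38.73 CPM. GR KO control tumors gave 364, 302, 148, 30.7 and 112 CPM. GR KO control tumors 1, 2, 3 and 5 lay above each of the other 16 tumors, whereas GR KO control tumor 4 lay among them, so the groups overlapped. The group means were 191 ± 138 CPM (SD, n = 5) for GR KO control, 40.2 ± 8.66 CPM for parental GC, 39.7 ± 3.40 CPM for GR KO GC and 39.5 ± 6.02 CPM for parental control, and the first of these exceeded the next beyond the spread, whereas the others did not differ beyond it.

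With GC, *Dusp5* fell by 2.27 on the log2 scale in GR KO tumors (4.82-fold, SE 0.38, 95% interval −3.06 to −1.48, edgeR adjusted p = 0.0021, in a comparison that called 6.42% of all genes), and 4 of 5 control tumors lay above all GC tumors (exact two-sided permutation p = 0.0476, where 5 against 5 can reach 0.00794). Between control tumors it was higher in GR KO by 2.28 (4.85-fold, SE 0.38, 95% interval 1.49 to 3.07, edgeR adjusted p = 0.00387, exact p = 0.0476), where 2.25% of all genes were called. These comparisons share the 5 GR KO control tumors. In parental tumors the GC effect was 0.02 (SE 0.37, 95% interval −0.73 to 0.78, edgeR adjusted p = 0.985), and between GC tumors the genotype effect was −0.02 (SE 0.37, adjusted p = 0.991). The difference of the GC effects, parental minus GR KO, was 2.29 (SE 0.52, 95% interval 1.21 to 3.37, edgeR adjusted p = 0.0626) and did not pass. It passed with DESeq2 (2.33, adjusted p = 0.00207), with no filter on low levels (2.29, edgeR adjusted p = 0.0393) and without GR KO control tumor 4 (2.56, edgeR adjusted p = 0.00355). In bulk RNA, fewer cells of a type and less RNA per cell cannot be told apart.

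The 2 tumor calls of *Dusp5* rest on GR KO control tumors 1, 2, 3 and 5, which are all among the 6 libraries with over 5% of *Gm26924*. Leaving out the 6, an alternative chosen after seeing the data, leaves GR KO control tumor 4 as the lone tumor of its group, assumed to vary like the other groups. It had 30.7 CPM, so the loss of both calls was fixed by which tumors were removed and does not test the share of *Gm26924*. The GC effect in GR KO tumors was then 0.35 and the genotype effect in control tumors −0.30, each with the opposite sign. The difference of the GC effects was −0.27. With the number of genes expected at equal depth as a covariate the values were −1.31 (edgeR adjusted p = 0.0935) and 1.25 (adjusted p = 0.214). With each of the 10 libraries of a comparison left out in turn, the 2 calls held, with a GC effect between −2.54 and −1.90 and a genotype effect between 1.91 and 2.55. The 4 tumors with the most *Dusp5* were the 4 with the fewest genes at equal depth. They were also among the 6 with the highest share of *Gm26924*, of which the other 2 had 44.6 CPM (parental control tumor 1) and 41.3 CPM (GR KO GC tumor 4) of *Dusp5*. Since these 4 tumors form a cluster apart, no correlation over all tumors is given for *Dusp5*. Within the other 16 tumors, chosen after seeing the data, Pearson's r of *Dusp5* was 0.745 with the log2 share of *Gm26924* (Spearman's rho 0.788) and −0.303 with the number of genes at equal depth (rho −0.329). The part of library content in the result was not tested.

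**Figure D1:**
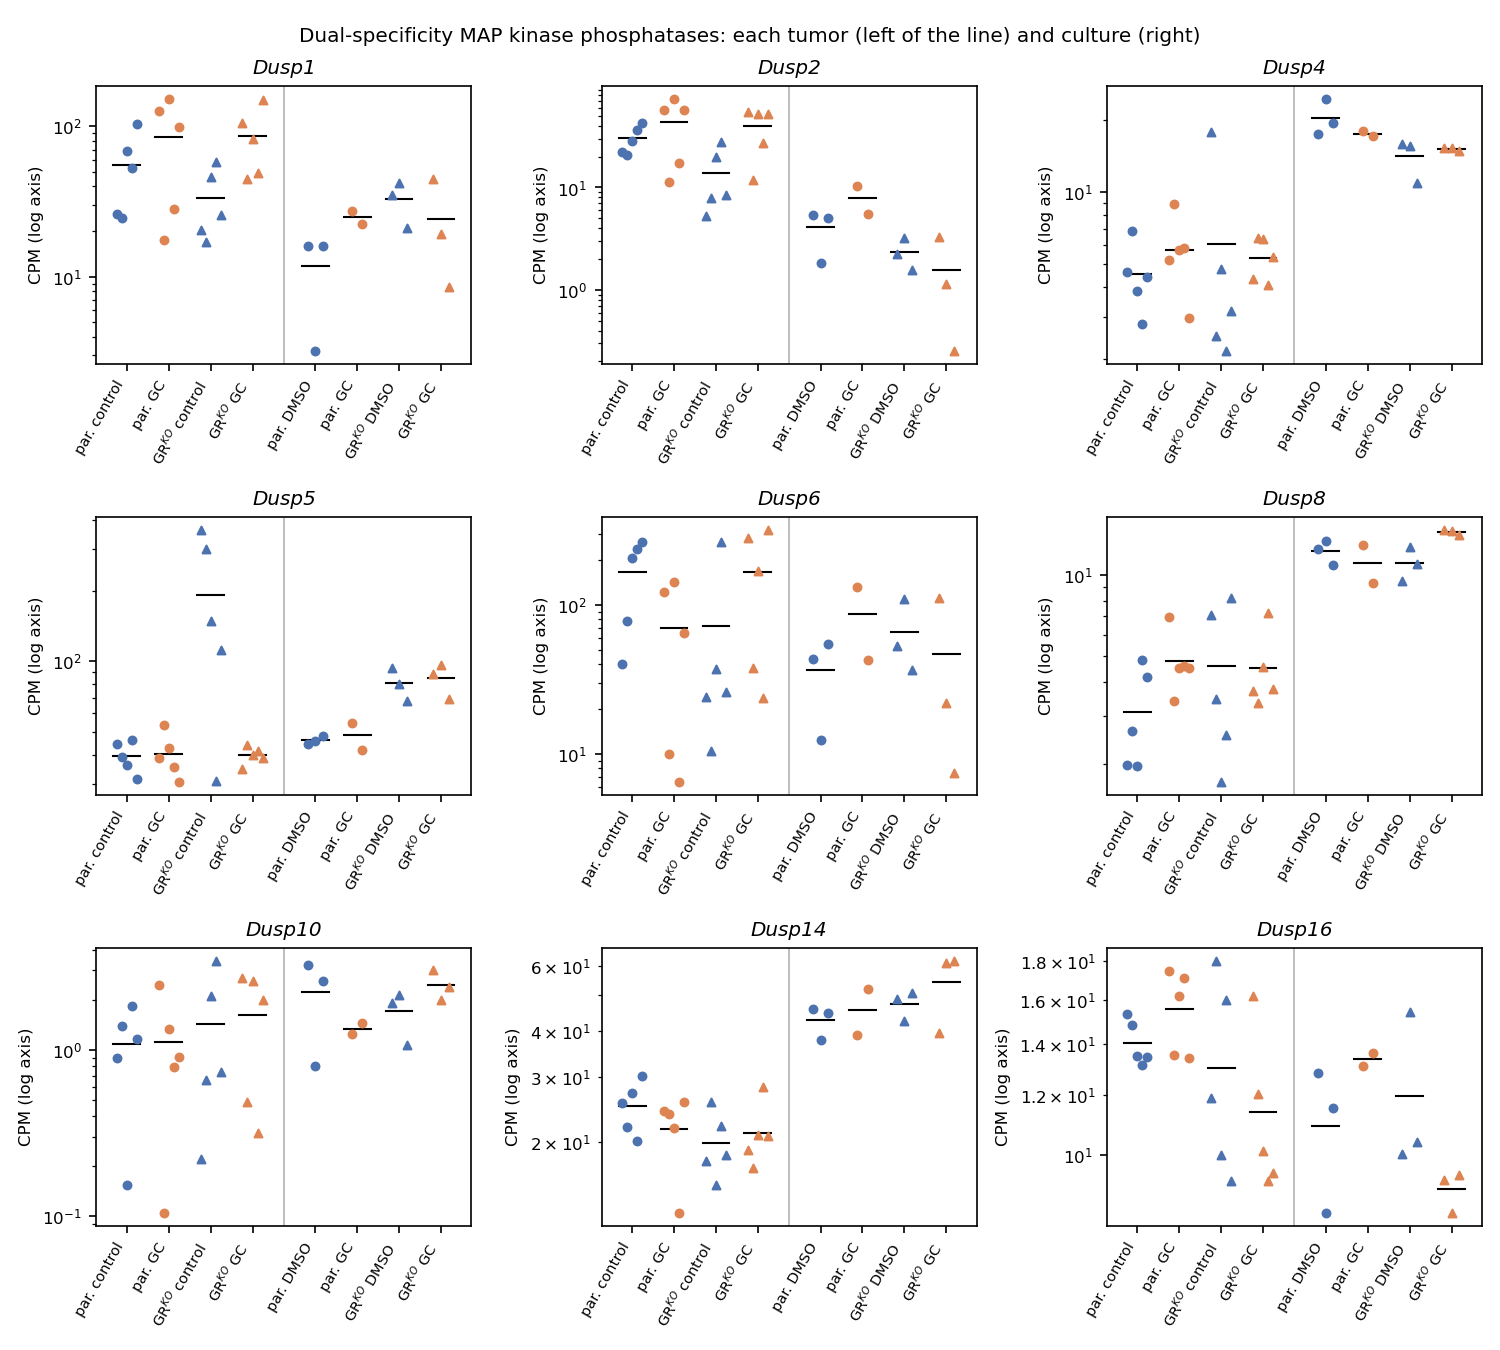
Level of each of the 9 MKP genes in CPM on a log axis, with 1 point per tumor (left 4 groups) or culture (right 4 groups) and bars for group means. *Dusp5* was above 100 CPM in 4 of 5 GR KO control tumors and at most 53.4 CPM in the other 16 tumors.

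Cell type markers moved between the same groups, where 6.42% of all genes were called for GC in GR KO tumors and 2.25% between control tumors. The 4 keratinocyte markers (most abundant *Krt14*) summed to 2872, 3608, 2918, 1276 and 1760 CPM in GR KO control tumors and to 689, 871, 1305, 1514 and 1357 CPM with GC, against 882, 779, 1240, 785 and 2785 CPM in parental control tumors and 978, 1006, 893, 1191 and 956 CPM in parental GC tumors. With GC in GR KO tumors *Krt14* fell and *Krt1* and *Krt10* rose. The 5 fibroblast markers (most abundant *Col3a1*) summed to 3447, 3786, 4304, 6271 and 4912 CPM in GR KO control tumors and to 9705, 7907, 11102, 7152 and 10914 CPM with GC, and 4 of 5 rose with GC there. In parental tumors the fibroblast sums were 6518, 7184, 6617, 7163 and 6779 CPM in controls and 10464, 8173, 10414, 7584 and 10523 CPM with GC. The 4 endothelial markers (most abundant *Kdr*) summed to 86.8, 83.8, 98.1, 98.3 and 78.0 CPM in GR KO control tumors and 45.9, 49.4, 43.4, 39.1 and 46.1 CPM with GC, where *Kdr* fell, against 63.5, 51.9, 41.5, 66.8 and 44.6 CPM in parental controls and 33.3, 18.3, 23.2, 35.1 and 31.3 CPM with GC. All 10 marker calls for GC in GR KO tumors were lost without the 6 libraries, which leaves 1 control tumor. Some values kept their size there (*Kdr* −1.20 against −1.32, *Cd3d* −1.42 against −1.26 and *Myh4* −1.77 against −1.33), and others were smaller (*Krt14* −0.28 against −1.42, *Krt1* 1.36 against 1.85, *Krt10* 0.76 against 2.13, *Col1a1* 0.34 against 0.64, *Col1a2* 1.24 against 1.83, *Col3a1* 0.59 against 1.03 and *Pdgfra* 0.60 against 1.17), with edgeR adjusted p from 0.103 to 0.968. Between control tumors *Kdr* was higher in GR KO (0.98, edgeR adjusted p = 0.0472) and *Col3a1* (−0.997, adjusted p = 0.0252) and *Krt1* (−1.21, adjusted p = 0.0422) were lower. Leaving out 1 library lost these calls in 9, 5 and 8 of 10 fits, and all 3 were lost without the 6 libraries (0.95, −0.56 and −0.59) and with the covariate (0.98, −0.65 and −1.16). Counting these 2, the calls of *Kdr*, *Col3a1* and *Krt1* were lost under 4, 2 and 3 of 8 such alternatives. The marker genes named here were chosen after their values were seen, and their part in the *Dusp5* result was not tested.

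The other marker lists were as follows, where GC called 6.42% of all genes in GR KO tumors and 0.779% in parental tumors. Neutrophil markers (5 genes, most abundant *S100a8*) summed to 430, 786, 266, 178 and 1022 CPM in GR KO control tumors and 97.7, 49.8, 229, 201 and 136 CPM with GC, with 0 of 5 called, and to 22.7, 67.5, 244, 32.9 and 1277 CPM in parental controls and 14.6, 10.1, 11.1, 22.6 and 38.76 CPM with GC, where *S100a8* (−3.96, edgeR adjusted p = 0.0437) and *S100a9* (−5.03, adjusted p = 0.0109) fell. Leaving out 1 library lost the call of *S100a8* in 6 of 10 fits and that of *S100a9* in 1. Without parental control tumor 5, the tumor at 1277 CPM, the values were −2.05 (edgeR adjusted p = 0.316) and −2.98 (adjusted p = 0.0657). Both calls were also lost with the 2 groups fitted alone, and that of *S100a8* with the replicate block (−3.24, adjusted p = 0.0624). Macrophage markers (5 genes, most abundant *C1qa*) summed to 8834, 7632, 5107, 6063 and 6228 CPM in GR KO control tumors and 4604, 7361, 4113, 4605 and 3967 CPM with GC, with 0 of 5 called. T cell markers (5 genes, most abundant *Cd3d*) summed to 69.5, 101, 69.1, 120 and 54.8 CPM and 41.4, 64.1, 50.8, 37.8 and 29.8 CPM in the same groups, and *Cd3d* fell. Striated muscle markers (4 genes, most abundant *Acta1*) summed to 452, 405, 576, 499 and 300 CPM and 291, 367, 387, 251 and 268 CPM, where *Myh4* fell. In parental tumors *Ttn* was called for GC (1.14, edgeR adjusted p = 0.0348), but 7 of 10 fits that left out 1 library lost this call, as did the fit of the 2 groups alone. For GC in GR KO tumors the same leaving out lost *Krt14* and *Pdgfra* in 7, *Col1a1* in 6, *Cd3d* in 5, *Myh4* in 3 and *Krt10* in 1 of 10 fits. Of 8 other alternatives, that without the 6 libraries among them, *Col1a1* and *Pdgfra* lost their calls in 4. *Cd3d*, *Col3a1*, *Krt10*, *Krt14* and *Myh4* lost theirs in 2 of the 8. Melanocyte markers summed to 39.7, 34.4, 37.7, 25.7 and 28.0 CPM and 40.1, 39.5, 34.2, 53.9 and 26.7 CPM with 0 called, and B cell markers did not exceed 0.366 CPM in any tumor.

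In cultures *Dusp5* was called between genotypes and not with GC. Parental cultures gave 44.5, 45.9 and 48.2 CPM with DMSO and 54.7 and 42.0 CPM with GC, and GR KO cultures 93.7, 80.3 and 67.9 CPM with DMSO and 87.9, 96.7 and 68.9 CPM with GC. Every GR KO culture lay above every parental culture. The order of means was GR KO GC at 84.5 ± 14.2 CPM (SD, n = 3), GR KO DMSO at 80.6 ± 12.9 CPM (n = 3), parental GC at 48.4 ± 8.99 CPM (n = 2) and parental DMSO at 46.2 ± 1.89 CPM (n = 3), with a step beyond the spread between the genotypes and none within them. *Dusp5* was higher in GR KO by 0.80 on the log2 scale with DMSO (1.74-fold, SE 0.17, 95% interval 0.44 to 1.17, edgeR adjusted p = 0.0116) and by 0.81 with GC (1.75-fold, SE 0.19, 95% interval 0.39 to 1.22, edgeR adjusted p = 0.028), in comparisons that called 8.22% and 5.55% of all genes. The exact permutation p was 0.1 in each, the smallest that 3 against 3 or 2 against 3 cultures can reach. The first call was lost without parental DMSO 1 (0.77, edgeR adjusted p = 0.0539) or GR KO DMSO 1 (0.68, adjusted p = 0.0584). The second was lost without parental GC 1 (1.01, edgeR adjusted p = 0.0620), parental GC 2 (0.63, adjusted p = 0.281) or GR KO GC 2 (0.70, adjusted p = 0.112), and with the 2 groups fitted alone (0.80, adjusted p = 0.150). GC effects were 0.06 in parental cells (SE 0.19, 95% interval −0.35 to 0.47, edgeR adjusted p = 0.910) and 0.07 in GR KO cells (SE 0.17, 95% interval −0.30 to 0.43, adjusted p = 0.980).

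Markers also differed between these cultures. Fibroblast markers (most abundant *Col3a1*) summed to 283, 172 and 245 CPM (parental, DMSO), 194 and 179.95 CPM (parental, GC), 79.6, 85.2 and 70.4 CPM (GR KO, DMSO) and 86.2, 63.8 and 64.8 CPM (GR KO, GC). In GR KO cultures 3 of 5 were lower with DMSO, where 8.22% of all genes were called, and 2 of 5 with GC, where 5.55% were. *Col1a1* was at −4.30 and −4.00, *Col3a1* at −1.37 and −1.21 and *Dcn* at −7.72 with DMSO. *Dcn* was tested in only 3 of 6 fits that left out 1 culture, so its value is not read as an exact fold. *Mitf* was lower by 1.36 with DMSO (edgeR adjusted p = 0.0038) and by 1.02 with GC (adjusted p = 0.036). The *Mitf* call with GC was lost in 5 of 5 fits that left out 1 culture, with no filter, with the replicate block (−1.08, edgeR adjusted p = 0.0658) and with the 2 groups fitted alone, and that of *Col3a1* with GC in 1 of 5 fits. *Gm26924* was 0.64 higher in GR KO with DMSO (SE 0.21, edgeR adjusted p = 0.084, no overlap) and 0.68 higher with GC (SE 0.24, adjusted p = 0.141, with overlap), and was called in neither. These genes were chosen after their values were seen, and their part in the culture calls of *Dusp5* was not tested.

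*Dusp2* and *Dusp1* had the next smallest adjusted p for GC in GR KO tumors and did not pass. *Dusp1* encodes MKP-1, the nuclear phosphatase of p38, JNK and ERK (ENSMUSG00000024190, chr17:26505590-26562128, minus strand), and its exons overlap those of *Ergic1* on the opposite strand. No strand setting was named for the counting, whose default does not use the strand, so if that default was used, reads of the overlap cannot be told apart. Gene positions and overlaps were taken from GENCODE M21, whereas reads were counted on Ensembl 75, in which the overlaps were not checked. *Dusp1* gave 26.2, 24.7, 68.4, 52.9 and 103 CPM in parental control tumors, 127, 17.5, 153, 28.1 and 98.3 CPM in parental GC tumors, 20.3, 16.9, 45.7, 57.9 and 25.8 CPM in GR KO control tumors and 106, 44.9, 82.5, 48.7 and 151 CPM in GR KO GC tumors. All 4 groups overlapped, and high and low tumors lay within each group. With GC the change was 0.62 in parental tumors (SE 0.50, 95% interval −0.41 to 1.66, edgeR adjusted p = 0.614) and 1.37 in GR KO tumors (2.59-fold, SE 0.51, 95% interval 0.32 to 2.43, edgeR adjusted p = 0.0993, exact p = 0.0397), and the difference of the effects was −0.75 (SE 0.71, adjusted p = 0.574). Without GR KO control tumor 4 the GR KO value was 1.68 (edgeR adjusted p = 0.0406), and without the 6 libraries 0.72 (adjusted p = 0.931). In cultures *Dusp1* gave 16.0, 3.20 and 16.0 CPM (parental, DMSO), 27.5 and 22.6 CPM (parental, GC), 34.9, 42.1 and 21.2 CPM (GR KO, DMSO) and 44.8, 19.1 and 8.58 CPM (GR KO, GC). Both parental GC cultures lay above the 3 parental DMSO cultures, as did the 3 GR KO DMSO cultures, and the change with GC was 1.09 (SE 0.66, 95% interval −0.36 to 2.54, edgeR adjusted p = 0.679) in parental cells. Between DMSO cultures GR KO gave 1.48 (SE 0.61, 95% interval 0.15 to 2.82, edgeR adjusted p = 0.162).

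*Dusp2* encodes a nuclear, mitogen-induced phosphatase best known from lymphocytes (ENSMUSG00000027368, chr2:127336159-127338376, plus strand). Parental control tumors gave 22.2, 21, 28.6, 36.2 and 42.5 CPM, parental GC tumors 57.4, 11.4, 73.7, 17.3 and 57.5 CPM, GR KO control tumors 5.28, 7.89, 19.7, 27.9 and 8.48 CPM, and GR KO GC tumors 54.7, 11.9, 52.7, 27.2 and 52.6 CPM. In both GC groups 3 tumors were above 50 CPM and 2 were below 28 CPM, and all groups overlapped. The GC effect was 0.53 in parental tumors (SE 0.48, edgeR adjusted p = 0.660) and 1.52 in GR KO tumors (2.87-fold, SE 0.49, 95% interval 0.51 to 2.53, edgeR adjusted p = 0.0628, exact p = 0.0397), with a difference of −0.99 (SE 0.68, adjusted p = 0.419). The GR KO value passed with DESeq2 (1.49, adjusted p = 0.0190), without GR KO control tumor 4 (1.96, edgeR adjusted p = 0.0148) and without GR KO GC tumor 2 (1.75, edgeR adjusted p = 0.0308), and was 0.62 without the 6 libraries (edgeR adjusted p = 0.940). Between control tumors it was −1.11 in GR KO (SE 0.49, 95% interval −2.12 to −0.11, edgeR adjusted p = 0.201, exact p = 0.0317), and −1.54 without GR KO control tumor 4 (edgeR adjusted p = 0.0493) and −0.19 without the 6 libraries. In cultures *Dusp2* gave 5.40, 1.85 and 4.99 CPM (parental, DMSO), 10.3 and 5.56 CPM (parental, GC), 2.23, 3.25 and 1.56 CPM (GR KO, DMSO) and 3.31, 1.13 and 0.252 CPM (GR KO, GC). With GC, all GR KO cultures lay below both parental cultures, and the value was −2.33 (SE 0.74, 95% interval −3.95 to −0.72, edgeR adjusted p = 0.101), which passed with DESeq2 (−2.34, adjusted p = 0.0217), with no filter (−2.33, edgeR adjusted p = 0.0240) and without GR KO GC 1 (−3.45, edgeR adjusted p = 0.0141).

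*Dusp4*, which encodes the nuclear phosphatase MKP-2, was low in tumors, where it ran from 2.16 to 17.7 CPM with a median of 4.72 CPM. Its highest value was that of GR KO control tumor 1, and the other 19 tumors did not exceed 8.90 CPM. In cultures it ran from 10.9 to 24.6 CPM, and the 3 parental DMSO cultures (17.5, 24.6 and 19.4 CPM) lay above the 3 GR KO DMSO cultures (15.8, 15.6 and 10.9 CPM). That contrast was −0.54 (SE 0.19, 95% interval −0.95 to −0.12, edgeR adjusted p = 0.105) and did not pass.

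*Dusp6*, which encodes the cytoplasmic ERK phosphatase (ENSMUSG00000019960, chr10:99263231-99267489, plus strand), had the widest range of the 9 in tumors, from 6.45 to 321 CPM, or 49.8-fold. Parental control tumors gave 40.3, 78.1, 207, 236 and 267 CPM, parental GC tumors 123, 9.89, 144, 6.45 and 65.3 CPM, GR KO control tumors 24, 10.5, 37.3, 265 and 26.2 CPM, and GR KO GC tumors 284, 37.9, 169, 23.9 and 321 CPM. Each group held tumors of both high and low level, and all groups overlapped. In GR KO control, tumor 4 stood far above the others. The GC effect was −1.25 in parental tumors (SE 0.85, 95% interval −3.00 to 0.50, edgeR adjusted p = 0.530) and 1.20 in GR KO tumors (SE 0.85, adjusted p = 0.3995), and the difference was −2.45 (SE 1.20, 95% interval −4.93 to 0.03, edgeR adjusted p = 0.254). Without GR KO control tumor 4 the GR KO effect was 2.79 (edgeR adjusted p = 0.0281), the difference −4.03 (adjusted p = 0.0322) and the genotype effect in control tumors −2.76 (adjusted p = 0.0352) against −1.19 with it (SE 0.85, adjusted p = 0.445). Without the 6 libraries the same 3 values were −0.39, −1.09 and 0.44, with edgeR adjusted p from 0.914 to 1. In cultures it gave 43.4, 12.4 and 54.5 CPM (parental, DMSO), 132 and 42.9 CPM (parental, GC), 52.8, 109 and 36.7 CPM (GR KO, DMSO) and 111, 21.9 and 7.45 CPM (GR KO, GC), and no group stood clear of another. The GC effect was 1.25 in parental cells (SE 0.92, edgeR adjusted p = 0.698) and −0.50 in GR KO cells.

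Of the genes directed at JNK and p38, *Dusp8* ran from 1.71 to 8.17 CPM in tumors and from 9.31 to 14.7 CPM in cultures, *Dusp16* from 9.22 to 18 CPM and from 8.37 to 15.4 CPM, and *Dusp10* from 0.105 to 3.44 CPM and from 0.801 to 3.25 CPM. The lowest *Dusp10* value rests on 2 counts, under a floor of 3 counts, and such a floor covers counting error alone. *Dusp8* gave 14.7, 14.5 and 13.9 CPM in GR KO GC cultures and 9.45, 12.7 and 10.9 CPM in GR KO DMSO cultures, so these groups did not overlap, and the effect was 0.38 with no call. *Dusp16* in GC cultures did not overlap between genotypes (GR KO 9.24, 8.37 and 9.40 CPM, parental 13.1 and 13.6 CPM, −0.57, SE 0.25, edgeR adjusted p = 0.255), and gave −0.45 between GC tumors (SE 0.23, edgeR adjusted p = 0.475, exact p = 0.0317). *Dusp14* ran from 12.9 to 30.2 CPM in tumors and from 37.9 to 62.1 CPM in cultures. Exons of *Dusp8* overlap *Gm32786* on the opposite strand, which is not in the table of counts. None of the 4 genes of this paragraph was called in any of the 10 comparisons, by edgeR or under any alternative.

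Read by comparison, GC in parental tumors changed 0 of 9 members by edgeR, against 0.779% of all genes tested (69 higher and 55 lower). DESeq2 also called 0, and 0 members had an unadjusted p under 0.05, as 2249 genes did. The smallest adjusted p was 0.530, and the median log2 change was 0.15 against 0.00397 for all genes. In GR KO tumors 1 of 9 fell (*Dusp5*), against 6.42% of genes (431 higher and 591 lower), and the medians were 0.09 and 0.05. Without GR KO control tumor 4 the count there was 4 of 9 and that of all genes 2411, and without the 6 libraries it was 0 of 9 and 29 genes. The difference of the effects passed for 0 of 9 with edgeR (1 member with an unadjusted p under 0.05, and 1 called by DESeq2) against 0.195% of genes. The difference uses the samples of both GC effects.

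Between genotypes, 1 of 9 was higher in GR KO control tumors (*Dusp5*), against 2.25% of genes, and 0 of 9 differed between GC tumors by edgeR or DESeq2 (0 members and 1816 genes with an unadjusted p under 0.05), against 0.634%. Without GR KO control tumor 4 the first count was 3 of 9 and that of all genes 1762, and without the 6 libraries 0 of 9 and 0 genes by edgeR. In cultures GC changed 0 of 9 members in parental cells by edgeR or DESeq2 (0 members and 1062 genes with an unadjusted p under 0.05), against 0.878% of genes. In GR KO cells it changed 0 of 9, against 0% of genes (237 genes and 0 members had an unadjusted p under 0.05, and DESeq2 called 0). The difference of the GC effects in cultures passed for 0 of 9 by edgeR or DESeq2 (0 members and 1075 genes with an unadjusted p under 0.05), against 0.295%. GR KO against parental cultures gave 1 of 9 with DMSO, against 8.22%, and 1 of 9 with GC, against 5.55%, *Dusp5* in both. With 9 genes, 1 call is too few to be read against these shares.

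**Figure D2:**
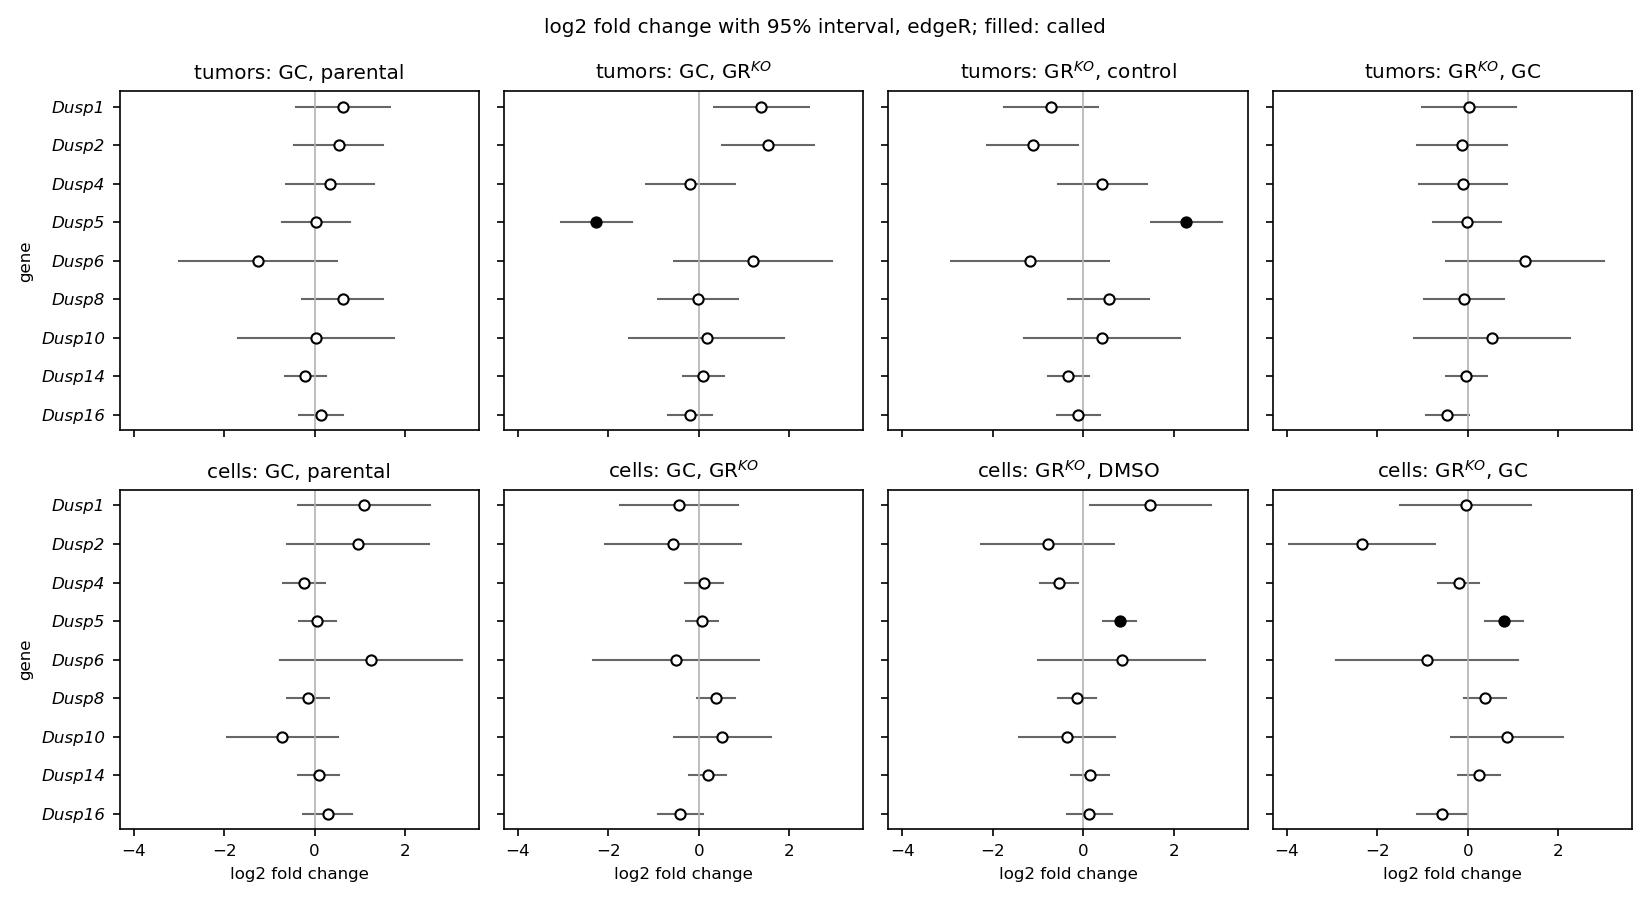
Log2 fold change of each of the 9 MKP genes with its 95% interval (edgeR), in 8 panels, with GC against control and GR KO against parental in tumors and in cultures, and filled points for genes called. *Dusp5* is the filled point in the 4 panels that have one, at −2.27, 2.28, 0.80 and 0.81.

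Counts of groups without overlap were as follows. In tumors 0 of 9 members had groups that did not overlap for GC in parental tumors (4.21% of all genes), GC in GR KO tumors (5.08%), genotype in control tumors (3.92%) and genotype in GC tumors (3.84%). In cultures 3 of 9 did for GC in parental cells (*Dusp1*, *Dusp2* and *Dusp16*, against 27.8% of genes) and 2 of 9 for GC in GR KO cells (*Dusp8* and *Dusp16*, against 7.55%). Between genotypes 3 of 9 did with DMSO (*Dusp1*, *Dusp4* and *Dusp5*, against 32.6%) and 6 of 9 with GC (*Dusp2*, *Dusp4*, *Dusp5*, *Dusp8*, *Dusp10* and *Dusp16*, against 33.0%). In the order of group means, neighbours differed beyond their spread in 4 places. These were the *Dusp5* steps given above, the step of *Dusp4* in cultures from parental GC (17.5 ± 0.601 CPM) to GR KO GC (15.2 ± 0.253 CPM), and that of *Dusp8* from GR KO GC (14.4 ± 0.369 CPM) to parental DMSO cultures (12.2 ± 1.23 CPM).

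The other orders had no neighbours apart beyond the spread. *Dusp1* in tumors ran from GR KO GC (86.5 ± 43.8 CPM) over parental GC (84.8 ± 59.96) and parental control (55.0 ± 32.6) to GR KO control (33.3 ± 17.7). *Dusp2* ran from parental GC (43.5 ± 27.5 CPM) over GR KO GC (39.8 ± 19.3) and parental control (30.1 ± 9.21) to GR KO control (13.8 ± 9.60). For *Dusp6* the order was GR KO GC (167 ± 137 CPM), parental control (166 ± 100), GR KO control (72.7 ± 108) and parental GC (69.6 ± 63.0). In cultures *Dusp1* was highest in GR KO DMSO (32.8 ± 10.6 CPM) and lowest in parental DMSO (11.7 ± 7.39 CPM), *Dusp2* highest in parental GC (7.95 ± 3.39 CPM) and lowest in GR KO GC (1.57 ± 1.57 CPM), and *Dusp6* highest in parental GC (87.6 ± 63.3 CPM) and lowest in parental DMSO (36.8 ± 21.8 CPM).

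*Dusp1*, *Dusp2* and *Dusp6* varied together from tumor to tumor. Over 20 tumors, on log2(CPM + 1), Pearson's r was 0.905 between *Dusp1* and *Dusp2* (Spearman's rho 0.926), 0.789 between *Dusp1* and *Dusp6* (rho 0.762) and 0.747 between *Dusp2* and *Dusp6* (rho 0.716). Taken as deviations from the group means the values were 0.904, 0.907 and 0.866, so the 3 genes moved together within groups. Over the 14 tumors outside the 6 libraries r was 0.899 (rho 0.881), 0.720 (rho 0.587) and 0.691 (rho 0.393). In the 11 cultures r was 0.380 (rho 0.345), 0.826 (rho 0.736) and 0.765 (rho 0.718), and the deviations from the group means gave 0.952, 0.921 and 0.988. *Dusp10* went with *Dusp6* (r = 0.638, rho 0.657) and *Dusp2* (r = 0.604, rho 0.597) in tumors. These are descriptions of tumors that also differ in library content: with the number of genes expected at equal depth, r was 0.834 for *Dusp2* (rho 0.794), 0.650 for *Dusp1* (0.654), 0.646 for *Dusp6* (0.642) and 0.604 for *Dusp10* (0.642). Over the 14 tumors these r were 0.703 (rho 0.591), 0.465 (0.371), 0.581 (0.266) and 0.754 (0.666). Cultures differ in library content as well. There the deviations from the group means gave r with the number of genes of 0.828 for *Dusp1*, 0.778 for *Dusp2* and 0.789 for *Dusp6*. The part of library content in the relations among the 3 genes was not tested.

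**Figure D3:**
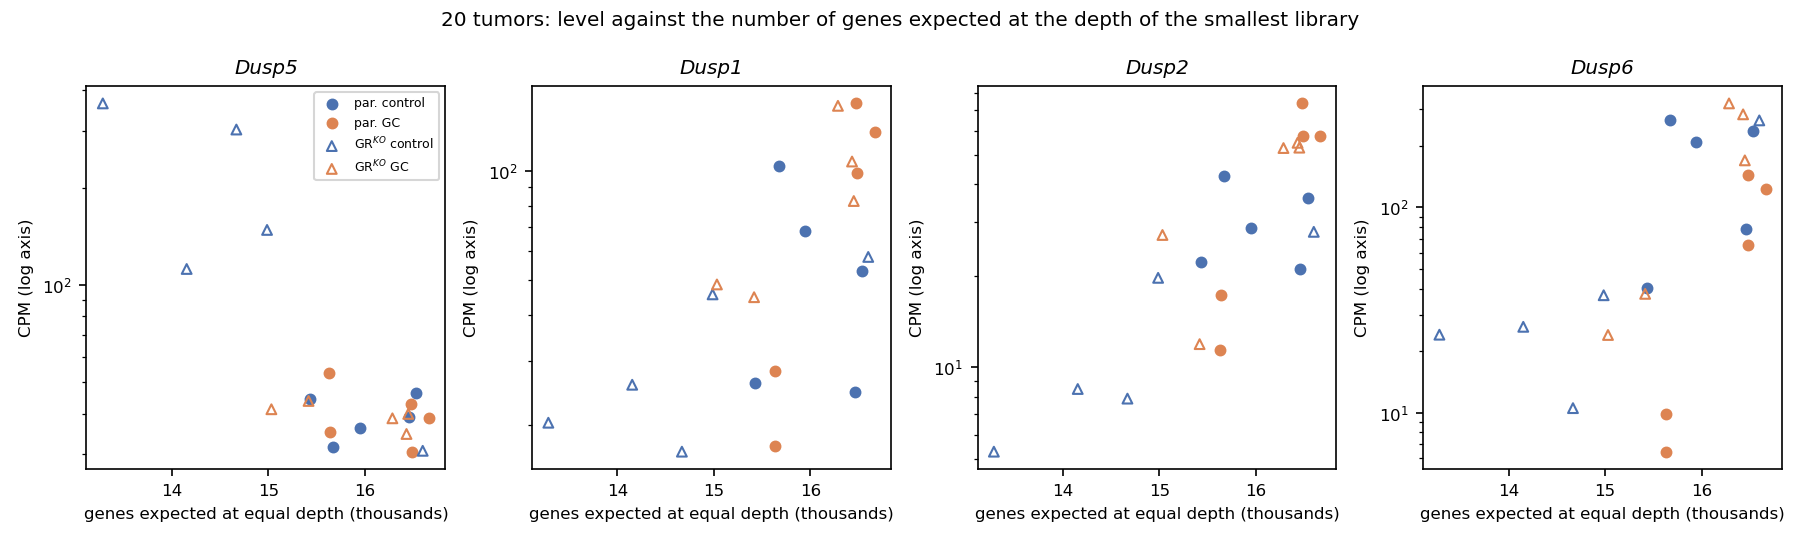
CPM on a log axis of *Dusp5*, *Dusp1*, *Dusp2* and *Dusp6* against the number of genes expected at equal depth, with 1 point per tumor for 20 tumors. The 4 tumors with the fewest genes are the 4 with the most *Dusp5*, and the 3 with the least *Dusp2* are among them.

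The genes whose levels over 20 tumors were most like each member, by Pearson's r, were as follows. For *Dusp5* they were *Gatsl2* (26.2 to 156 CPM) and *Cul7* (56.6 to 307 CPM), but since 4 tumors stand apart in *Dusp5*, no r over all tumors is given. Over the 14 tumors outside the 6 libraries r was 0.568 with *Gatsl2* (rho 0.530) and −0.0195 with *Cul7* (rho −0.0154). *Dusp6* had *Maml1* (0.980) and *Hnrnpa2b1* (0.978), with 996 genes over 0.8, the most of the 9. *Dusp2* had *Sertad4* (0.942) and *Atg3* (0.907), with 295 genes, and *Dusp1* had *Dusp2* (0.905) and *Uqcrb* (0.900), with 267. The others had few or none over 0.8. *Dusp4* was nearest to *Ptpn9* (0.835) and *Lyrm2* (0.833), *Dusp10* to *Il15* (0.822) and *Iigp1* (0.817), *Dusp14* to *Gm17296* (0.80) and *Atp1b2* (0.743), *Dusp8* to *Arhgap32* (0.738) and *Wdr92* (0.713), and *Dusp16* to *Gabpb2* (0.731) and *Gm16046* (0.707). Levels reached 0 and were low for *Gm17296* (at most 0.894 CPM), *Atp1b2* (1.75 CPM), *Wdr92* (4.12 CPM) and *Gm16046* (3.79 CPM), so their r may rest on few counts.

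Genes that report on ERK signaling were read from lists. Of 15 ERK feedback and output genes, 0 passed with GC in parental tumors (0.779% of all genes) and 3 in GR KO tumors (6.42%). *Spry1*, a feedback inhibitor upstream of ERK, gave 3.66, 3.94, 5.94, 7.53 and 8.24 CPM in GR KO control tumors and 13.3, 15.0, 18.3, 6.94 and 30.6 CPM with GC. *Etv5*, an ETS factor induced by ERK, gave 1280, 999, 788, 358 and 610 CPM and 415, 460, 227, 615 and 331 CPM. *Phlda1* gave 33.6, 76.2, 84.3, 71.3 and 86.2 CPM and 106, 108, 114, 150 and 176 CPM, without overlap, whereas the other 2 overlapped. *Spry1* rose by 1.52 on the log2 scale (SE 0.44, edgeR adjusted p = 0.0399) and *Phlda1* by 0.90 (SE 0.24, adjusted p = 0.0297), and *Etv5* fell by 0.98 (SE 0.29, adjusted p = 0.0431). All 3 calls were lost without the 6 libraries (1.35 for *Spry1*, 0.81 for *Phlda1* and −0.00485 for *Etv5*, edgeR adjusted p from 0.597 to 1), with the covariate (0.91, 0.80 and −0.29) and with the 2 groups fitted alone (1.51, 0.90 and −0.97). They were also lost without GR KO control tumor 1 or 2 or GR KO GC tumor 3 or 5, those of *Spry1* and *Etv5* without GR KO control tumor 3 or GR KO GC tumor 1, and that of *Etv5* without GR KO GC tumor 2. In the difference of the effects 0 of 15 passed by edgeR (0.195% of all genes). In cultures 0 of 15 passed with GC in either genotype (0.878% of all genes in parental and 0% in GR KO cells). Between control tumors *Spry1* (−1.95, edgeR adjusted p = 0.0288) and *Phlda1* (−1.005, adjusted p = 0.0331) were lower in GR KO, 2 of 15 against 2.25% of all genes. Both calls were lost without the 6 libraries (−1.71 and −1.06, edgeR adjusted p = 0.892 and 0.723) and with the covariate (−1.38 and −0.90), that of *Phlda1* with the 2 groups fitted alone, and both without parental control tumor 3 or 4 or without GR KO control tumor 1 or 2, and that of *Phlda1* without parental control tumor 2 or 5. In GR KO against parental cultures 4 of 15 were called with DMSO (8.22% of all genes) and 2 of 15 with GC (5.55%), chosen after their values were seen. *Phlda1*, lower in GR KO control tumors, was higher in GR KO cultures, by 0.75 with DMSO (edgeR adjusted p = 0.00295) and 1.31 with GC (adjusted p = 0.00023). *Epha4* was higher with DMSO (1.34, edgeR adjusted p = 0.000166), *Etv5* was lower with DMSO (−0.86, adjusted p = 0.0143), and *Etv1* was lower with DMSO (−1.09, adjusted p = 0.00143) and with GC (−0.86, adjusted p = 0.0118). Leaving out 1 culture lost the *Etv5* call in 2 of 6 fits and the *Etv1* call with GC in 3 of 5, and the latter was also lost with the 2 groups fitted alone (−0.87, edgeR adjusted p = 0.0982).

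Of 11 immediate-early genes, which respond to MAP kinases within minutes, 1 passed with GC in parental tumors, against 0.779% of all genes. *Egr1* gave 23.8, 22.6, 32.9, 23.4 and 42.9 CPM in control and 15.7, 18, 11.1, 10.0 and 14.6 CPM in GC tumors, without overlap. It fell by 1.07 on the log2 scale (SE 0.24, edgeR adjusted p = 0.034), and the call was lost without parental control tumor 3 or 5 or parental GC tumor 3, 4 or 5, and with the 2 groups fitted alone. The list had 1 positive value of 11 and a median of −0.87, against 0.00397 for all genes. In GR KO tumors it had 6 positive values and a median of 0.23, against 0.05 for all genes. The 15 ERK feedback and output genes had 4 positive values and a median of −0.22 in parental tumors. No list was tested as a set, and the lists were written with earlier results of these data known. In GR KO tumors (6.42% of all genes) and in parental (0.878%) and GR KO cultures (0%) 0 of 11 passed with GC. The difference of the tumor effects for *Egr1* was −1.30 (edgeR adjusted p = 0.0842). Between genotypes *Egr1* was higher in GR KO GC tumors (1.24, edgeR adjusted p = 0.0146, lost in 2 of 10 fits that left out 1 library), and *Fosb* (1.62, adjusted p = 0.0201) and *Ier3* (1.12, adjusted p = 0.00342) in GR KO GC cultures, where 4 and 1 of 5 fits that left out 1 culture lost the call. That of *Fosb* was also lost with the 2 groups fitted alone (1.61, adjusted p = 0.0684). *Fosb* and *Ier3* were chosen after their values were seen.

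The remaining phosphatases and the kinases showed no GC call by edgeR. Shares of all genes called for GC were 0.779% (parental tumors), 6.42% (GR KO tumors), 0.878% (parental cultures) and 0% (GR KO cultures). The MKPs outside the 9, *Dusp7* and *Dusp9*, gave 0 of 2, with −0.11 for *Dusp7* in parental and 0.10 in GR KO tumors. *Dusp9* was lower in GR KO cultures with DMSO (−1.32, edgeR adjusted p = 0.00143) and with GC (−1.30, adjusted p = 0.00339), the second lost without parental GC 2 and with the 2 groups fitted alone (−1.30, adjusted p = 0.0636), and was chosen after its values were seen. Of the 11 atypical dual-specificity phosphatases 9 were tested in tumors and 8 in cultures, with 0 called (*Dusp3* 0.12 in parental tumors and −0.83 in GR KO tumors, edgeR adjusted p = 0.0653). Of the MAP kinases, their kinases and RAS and RAF genes, 0 of 23 passed with GC in tumors and 0 of 22 in cultures, with *Mapk3* at −0.67 in parental tumors (edgeR adjusted p = 0.181) and −0.48 in GR KO tumors and *Nras* at 0.24 in parental cultures. *Map2k3*, chosen after its values were seen, was higher in GR KO DMSO cultures (0.76, SE 0.22, edgeR adjusted p = 0.0498), and 5 of 6 fits that left out 1 culture lost the call.

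The 9 genes lie on 9 different chromosomes. Promoter windows of 300 bases, from 250 before to 50 after the start, were taken for 8 of 9 from RefSeq (GRCm38.p6) and searched on both strands. The cAMP element TGACGTCA was found in *Dusp1* and at 2 places in *Dusp8*, and in 1.79% of all 32851 promoters. CACGTG, an E-box, was found in *Dusp1* and *Dusp2* (7.15% of all), GCGNGGGCG, an EGR motif, in *Dusp2* and *Dusp16* (5.55%), and the CArG box, the serum response element, at 2 adjoining places in *Dusp5* (1.63%). TGANTCA (7.81%), CCGGAAG (8.86%) and the GR element, AGAACA and TGTTC with 3 bases between (0.0487%), were found in none of the 8. A match is a description of these letters, and *Dusp4* was not among the 8. Shown are *Dusp5*, on which the calls rest, and *Dusp1*, *Dusp2* and *Dusp6*, which varied together, from chr19:53528895-53529194 (plus strand), chr17:26508423-26508722 (minus strand), chr2:127335909-127336208 (plus strand) and chr10:99262981-99263280 (plus strand), 5′ to 3′. Capitals mark the motif matches, of which *Dusp6* has none.
Dusp5: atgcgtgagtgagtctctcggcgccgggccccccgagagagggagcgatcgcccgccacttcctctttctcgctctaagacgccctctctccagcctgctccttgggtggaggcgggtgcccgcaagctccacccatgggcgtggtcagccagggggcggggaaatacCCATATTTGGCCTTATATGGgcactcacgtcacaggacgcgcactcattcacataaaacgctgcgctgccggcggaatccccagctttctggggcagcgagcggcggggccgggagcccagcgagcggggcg
Dusp1: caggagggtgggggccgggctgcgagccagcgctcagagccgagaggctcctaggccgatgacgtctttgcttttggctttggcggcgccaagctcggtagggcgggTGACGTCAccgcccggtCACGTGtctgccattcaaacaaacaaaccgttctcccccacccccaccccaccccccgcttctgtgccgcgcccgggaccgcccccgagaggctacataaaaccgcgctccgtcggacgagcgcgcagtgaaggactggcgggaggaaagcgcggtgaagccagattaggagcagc
Dusp2: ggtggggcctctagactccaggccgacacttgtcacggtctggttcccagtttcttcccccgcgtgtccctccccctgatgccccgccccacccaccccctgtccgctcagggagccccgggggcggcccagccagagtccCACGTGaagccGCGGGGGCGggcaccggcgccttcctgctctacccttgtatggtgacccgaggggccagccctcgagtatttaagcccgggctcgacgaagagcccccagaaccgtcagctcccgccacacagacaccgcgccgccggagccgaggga
Dusp6: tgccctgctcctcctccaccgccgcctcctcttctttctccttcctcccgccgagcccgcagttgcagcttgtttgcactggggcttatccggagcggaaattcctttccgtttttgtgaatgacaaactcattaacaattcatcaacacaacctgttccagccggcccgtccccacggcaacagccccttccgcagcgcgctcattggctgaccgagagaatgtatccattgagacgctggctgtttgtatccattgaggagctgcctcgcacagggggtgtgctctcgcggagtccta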

How the data were processed

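The deposited file holds raw counts that the authors made from QuantSeq 3′ FWD libraries (500 ng RNA, NovaSeq 6000) with Trim Galore 0.6.5, STAR 2.6.1d and featureCounts on GRCm38 with Ensembl 75. All 31 columns were used, as 8 groups. Tumors and cultures were fitted apart with edgeR 4.0.16 (quasi-likelihood, TMM) in R 4.3.3, keeping genes with at least 0.5 CPM in 3 samples. Benjamini-Hochberg adjustment ran over all genes tested, and a gene was called at an adjusted p under 0.05 and a fold of at least 1.5. Exact two-sided permutation tests used log2(CPM + 1). Alternatives were DESeq2 1.42.0, no filter, no minimum fold, a replicate block, 2 groups alone, a covariate, other scaling and leaving out libraries. Named genes are the 9 members, the 2 genes nearest to each by Pearson's r and list genes called in any comparison. Some list genes without a call are also named, such as a list's most abundant gene and melanocyte markers, as are *Nr3c1* and *Gm26924*. Members and lists were chosen with earlier results of these data known.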

Additional observations from a re-analysis of the deposited data

Results flagged for a closer look

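In GR KO control tumor 1 *Dusp4* was at 17.7 CPM and the next tumor of the group at 4.78 CPM, a gap of 0.832 of the group's range. In GR KO control tumor 4 *Dusp6* was at 265 CPM and the next at 37.3 CPM, a gap of 0.895 of the range. Both exceed 0.71, the 95% limit for 5 samples, and 2 of the 36 groups of tumors tested over the 9 genes did so. Chance alone would give about 1 in 20 groups if these were independent, but the 36 groups reuse the same 20 tumors. GR KO control tumor 1 had 13284 genes expected at equal depth and 11.6% of *Gm26924*, and GR KO control tumor 4 had 16599 and 0.248%. The part of library content in these 2 gaps was not tested. In cultures the difference of the GC effects between parental and GR KO cells was tested as an interaction and passed for *Tsc22d3* (3.14 on the log2 scale, SE 0.27, edgeR adjusted p = 0.000332), *Per1* (3.00, SE 0.37, adjusted p = 0.00415) and *Sgk1* (1.30, SE 0.18, adjusted p = 0.00927). The call of *Sgk1* was lost without parental DMSO 1, parental GC 1 or parental GC 2.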

How the results depend on the processing

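Of 1449 alternative values of the members' log2 fold changes, 1425 kept their side of the threshold (with their direction where they passed), 14 passed where the value reported did not, 8 no longer passed and 2 that had passed changed sign. The exact tests kept theirs in 72 of 72 cases with scaling over all 31 libraries. Without the 6 libraries with a gene over 5% of counts (chosen after seeing the data), *Dusp5* was 0.35 for GC in GR KO tumors and −0.30 for genotype in control tumors, and genes and members called were 29 and 0 (GC, GR KO tumors), 0 (difference), 0 and 0 (genotype, control tumors) and 170 genes (genotype, GC tumors). With DESeq2 the genes called were 376 (GC, parental tumors), 1756 with 2 members (GC, GR KO tumors), 784 with 1 member (difference), 1001 (genotype, control tumors) and 293 (genotype, GC tumors), and in cultures 251 (GC, parental) and 128 (difference), with 2 members for genotype with GC. With no filter they were 49 with 1 member (tumor difference) and 64 (culture difference), with 2 members for genotype with GC in cultures. The replicate block treats samples of equal number as pairs, which the labels do not state (r of such pairs from −0.543 to 0.620). With this block the genes called were 144 (tumor difference), 160 (genotype, GC tumors) and 63 (GC, parental cultures), with the members called unchanged in all 10 comparisons. With 2 groups alone they were 391 (GC, GR KO tumors), 159 (genotype, control tumors), 59 (GC, parental cultures) and 230 with 0 members (genotype, GC cultures). With genes at equal depth as covariate they were 507 (GC, parental tumors), 217 with 0 members (GC, GR KO tumors), 11 (difference), 56 with 0 members (genotype, control tumors) and 353 (genotype, GC tumors). Leaving out 1 library at a time gave ranges, with genes first and members after, of 60 to 178 and 0 to 0 (GC, parental tumors), 303 to 2411 and 1 to 4 (GC, GR KO tumors), 0 to 1284 and 0 to 2 (difference; lowest without parental control 3, highest without GR KO control 4), 61 to 1762 and 1 to 3 (genotype, control tumors) and 40 to 114 and 0 to 0 (genotype, GC tumors). In cultures the ranges were 31 to 78 and 0 to 0 (GC, parental), 17 to 43 and 0 to 0 (difference), 594 to 916 and 0 to 1 (genotype, DMSO) and 322 to 842 and 0 to 2 (genotype, GC). Where values left their side of the threshold, the cause was not tested. Depth limits *Dusp10* most, with 2 counts in its lowest tumor. With 1 library left out at a time *Dusp5* ranged from −2.54 to −1.90 (GC, GR KO tumors), 1.91 to 2.55 (genotype, control tumors), 0.68 to 0.91 (genotype, DMSO cultures) and 0.63 to 1.01 (genotype, GC cultures).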
